A study of Mus musculus with 8 samples.

Results

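The cytokine genes described here are 10 members of the cytokine families outside the chemokines, taken by symbol from the deposited TPM values and by Ensembl identifier from the deposited counts: Csf1, Csf2, Lif, Il6, Tnf, Il1a, Il15, Il34, Tgfb1 and Tgfb2. They are 10 of the 54446 genes in the count table. Hepa1-6 is an established line of mouse hepatoma cells of the C57BL/6 strain, per the labels. Bulk mRNA was sequenced in 8 libraries, 2 for each of 4 groups: control cells without either agent, cells exposed to 50 µM of trimethylamine N-oxide (TMAO, an oxidised amine made from dietary choline by gut bacteria and the liver), cells exposed to 50 ng/ml of the protein TNF-α, and cells exposed to both agents at those doses, each for 24 h. All groups share the line and the same serum-containing medium. Each group holds a library numbered 14 and one numbered 16. Nothing in the labels states whether these are separate cultures, so p-values here reflect the spread between libraries alone, and that spread may be technical. The treatment label of the combined group names TMAO at both doses, whereas its titles and the protocol name TMAO and TNF-α.

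Cytokines are secreted proteins that carry signals between cells by binding surface receptors. CSF1 and IL-34 share the receptor encoded by Csf1r and keep macrophages alive, including the resident macrophages of the liver, and GM-CSF, the product of Csf2, acts on granulocytes and macrophages. LIF and IL-6 signal through the common chain gp130, IL-15 is presented to lymphocytes on its own receptor chain, and the TGF-β proteins are stored in a latent form and are central to liver scarring. TNF-α and IL-1α are inflammatory mediators whose receptors activate NF-κB, a transcription factor with binding sites near many cytokine genes.

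RefSeq windows of the bases before the start of a gene, on GRCm38.p6, were matched for 8 of the 10 members, and not for Il15 and Il34. The 4 windows that held a match to the NF-κB consensus are shown, since the agent added acts through NF-κB: those of Csf1, Tgfb1, Lif and Il6. Each line gives the 250 bases upstream of the RefSeq start, 5′ to 3′ on the strand of the gene, with capitals marking matches on either strand to the NF-κB consensus, to TGANTCA (an AP-1 site), to TATAAA or to GGGCGG (a GC box, CCGCCC on the other strand). The windows lie at chr3:107760470-107760719 (minus strand) for Csf1, at chr7:25686752-25687001 (plus strand) for Tgfb1, at chr11:4257318-4257567 (plus strand) for Lif and at chr5:30012864-30013113 (plus strand) for Il6.
Csf1: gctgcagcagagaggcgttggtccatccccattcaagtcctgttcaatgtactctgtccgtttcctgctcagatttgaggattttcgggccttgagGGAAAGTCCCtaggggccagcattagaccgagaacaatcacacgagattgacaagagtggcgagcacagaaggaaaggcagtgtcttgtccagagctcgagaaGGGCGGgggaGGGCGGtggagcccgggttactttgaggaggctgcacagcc
Tgfb1: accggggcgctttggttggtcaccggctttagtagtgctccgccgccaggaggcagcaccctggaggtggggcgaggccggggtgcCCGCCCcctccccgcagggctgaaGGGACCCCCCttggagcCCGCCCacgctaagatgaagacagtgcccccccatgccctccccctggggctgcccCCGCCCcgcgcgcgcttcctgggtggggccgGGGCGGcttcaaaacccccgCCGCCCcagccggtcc
Lif: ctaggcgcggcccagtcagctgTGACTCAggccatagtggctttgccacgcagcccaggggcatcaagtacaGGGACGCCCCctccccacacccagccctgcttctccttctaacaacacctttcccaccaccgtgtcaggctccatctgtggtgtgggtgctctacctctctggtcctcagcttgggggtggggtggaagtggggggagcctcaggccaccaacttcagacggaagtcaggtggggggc
Il6: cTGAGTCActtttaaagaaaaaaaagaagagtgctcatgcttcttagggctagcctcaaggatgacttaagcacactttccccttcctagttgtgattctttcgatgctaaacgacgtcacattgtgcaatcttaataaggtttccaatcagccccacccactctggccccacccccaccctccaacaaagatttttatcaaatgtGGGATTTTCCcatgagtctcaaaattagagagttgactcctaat

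The NF-κB consensus was matched in these 4 of the 8 windows and in none of Csf2, Tnf, Il1a and Tgfb2. The match stood from 154 to 145 bases before the start in Csf1, 140 to 131 in Tgfb1, 178 to 169 in Lif and 44 to 35 in Il6. Of all 32851 windows of this length, 7.251% held such a match. This share and those below are over windows of any G and C content, and enrichment was not tested. The AP-1 letters stood in the windows of Lif (228 to 222 bases before the start), Il6 (249 to 243) and Il1a (12 to 6), against 6.749% of all windows. GC boxes were found in Csf1 at 51 to 46 and at 41 to 36 bases before the start, and at 5 places in Tgfb1, whose window was 75.2% G and C, while 32.742% of all windows held at least 1 and the median G and C content was 52.4%. No match overlapped another in the 4 windows. In the remaining 4 matched members, Tnf, Il1a and Tgfb2 had a TATAAA string (12.368% of all windows), and Csf2 and Tnf had a single GC box each. The RefSeq start of Csf2 lies 232 bases upstream of its start in GENCODE M21, so its window is not the stretch directly before that other start. These matches describe letters in a window; binding was not measured.

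Depth was even, from 24736746 to 30488605 counts per library. Alb, Afp and Hnf4a, which mark liver cells, were abundant, while Apoa1 stayed at or under 0.338 CPM and Ttr at or under 0.169 CPM, so the line lacked part of the hepatocyte programme. The 8 liver genes summed to 1317 to 1446 CPM (counts scaled to the library's TMM-adjusted total) with TNF-α and to 3011 to 3230 CPM without it. Counts and TPM differed for Trf, 1 of the 8, at 1.06 to 2.57 CPM but 131 to 197 TPM, and the cause was not tested. The 10 leukocyte and macrophage markers summed to 27.4 to 40.3 CPM with TNF-α and 30.3 to 35.4 CPM without it, with Cd3e and Ncr1 at 0 counts and 4 of 10 above 3 counts in every library. The 5 endothelial markers summed to no more than 1.67 CPM, and the 6 stellate cell and fibroblast markers to 1278 to 1807 CPM, nearly all of it from Dcn (1277 to 1805 CPM). What part other cell types or the fall of the liver genes had in the cytokine results was not tested. Known TNF-α targets (Nfkbia, Tnfaip3, Vcam1, Icam1, Ccl2, Birc3) rose in 6 of 6 cases both with and without TMAO by edgeR's quasi-likelihood test. Of all tested genes, 2.16% with TMAO and 2.38% without it were called higher. In TPM the values of Tnfaip3 overlapped, at 20.8 to 109 with TNF-α and 32.3 to 34.4 without it. The 6 targets summed to 1854 to 2243 CPM with TNF-α and 485 to 523 CPM without it. They were chosen with earlier results of these data known, so this is not an independent check of the labels. In bulk RNA, fewer cells expressing a gene and less RNA per cell cannot be told apart.

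One library stood apart. Between the TNF-α libraries 32.8% of the genes compared differed by more than 1.5-fold, against 1.80% to 3.45% in the other groups. The library TNF-α 16 also had the lowest total. Across genes, the difference between libraries 14 and 16 of the TNF-α group correlated at -0.64 with that of the control group, so control 14 differed from control 16 in the direction in which TNF-α 16 differed from TNF-α 14. The part of this pattern in the results was not tested. Results are given with and without TNF-α 16. With it left out, each of the 5 cytokine genes called below stayed higher, with adjusted p-values by edgeR's quasi-likelihood test of at most 0.00153, although the remaining TNF-α library is then assumed to vary like the other groups. With control 14 left out as well they were at most 1.81e-04, and with control 14 alone left out Il15 did not pass (adjusted p = 0.0944).

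In the cells without TNF-α, Csf1 was the most abundant of these transcripts, followed by Tgfb1 and Lif. Levels between genes are compared in TPM, which is per length. Over the 4 control and TMAO libraries Csf1 averaged 105 ± 5.39 TPM (SD, n = 4), Tgfb1 67.0 ± 3.84, Lif 22.6 ± 1.27, Il34 9.22 ± 0.242, Csf2 5.92 ± 0.993 and Il15 5.13 ± 1.25. Each of these ranges was clear of the next except for Csf2 and Il15, which overlapped. Il6, Tgfb2, Il1a and Tnf, in that order, all averaged under 0.3 TPM, and each overlapped the next. In the 4 libraries with TNF-α the order at the top was the same, with Csf1 at 171 ± 19.96 TPM and Tgfb1 at 102 ± 4.81. Csf2 (21.004 ± 4.79) then overlapped both Lif (27.5 ± 5.73) and Il34 (17.9 ± 0.363), which did not overlap each other. Without TNF-α all values of Csf2 had lain under those of Il34.

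**Figure D1:**
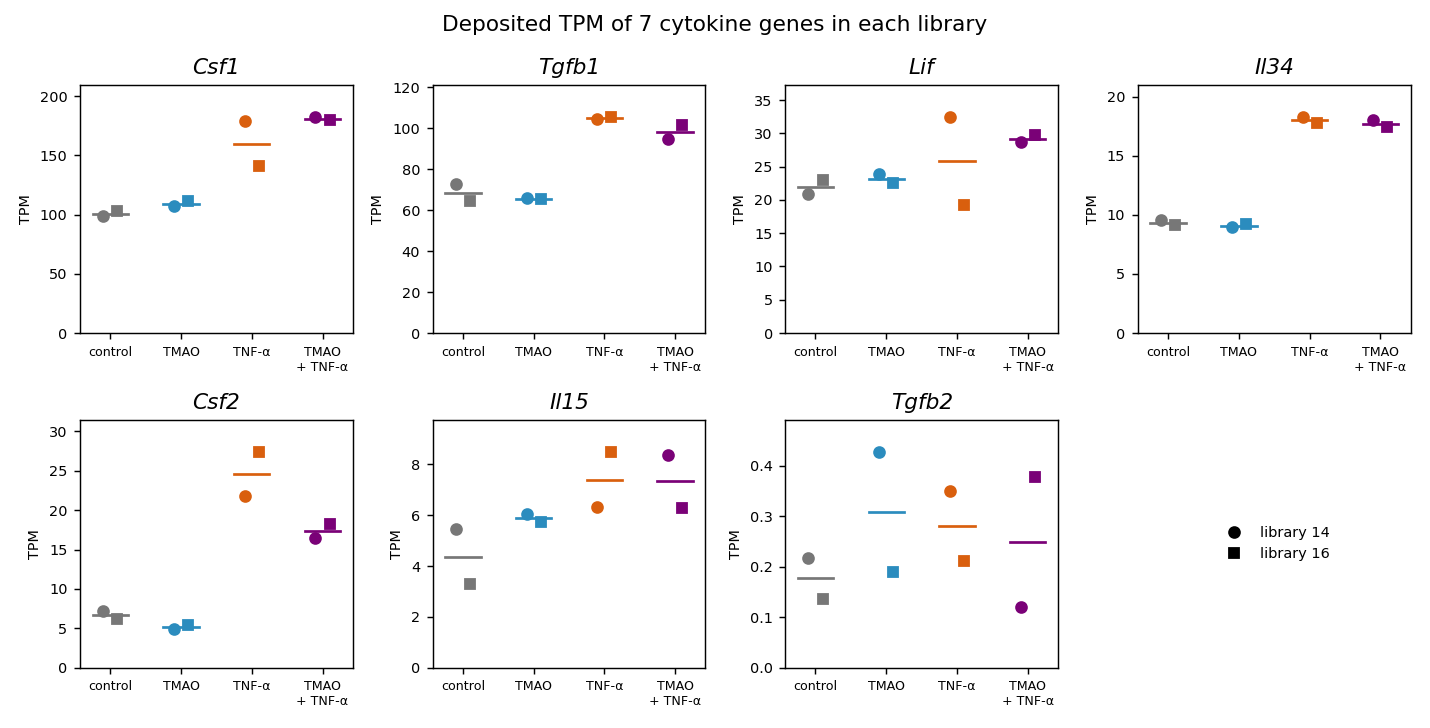
Deposited TPM (vertical axis, from 0) of the 7 tested cytokine genes in each library; circles are libraries 14, squares libraries 16 and bars the mean of each pair. All 4 libraries with TNF-α lie above all 4 without it for Csf1, Tgfb1, Il34, Csf2 and Il15, while Lif overlaps through TNF-α 16 at 19.3 TPM and Tgfb2 stays under 0.43 TPM.

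The ligands of the macrophage growth factor receptor rose with TNF-α. Csf1 stood at 262 and 253 CPM in control libraries 14 and 16, 267 and 270 with TMAO, 446 and 414 with TNF-α, and 445 and 446 with both agents. The groups without TNF-α lay close together, and no library without it reached the level of one with it. The log2 fold change of Csf1 was 0.74 (SE 0.10, adjusted p = 0.0121 by the quasi-likelihood test of edgeR, adjusted by Benjamini-Hochberg) for TNF-α against control and 0.73 (SE 0.10, adjusted p = 0.0124) for both agents against TMAO. Il34, the other ligand, stood at 7.87 and 7.27 CPM in control, 5.68 and 6.30 with TMAO, 13.8 and 19.4 with TNF-α, and 13.2 and 12.4 with both. Its 4 values with TNF-α were again all above the 4 without. Il34 changed by 1.13 log2 units (SE 0.18, adjusted p = 0.0193) without TMAO and 1.10 (SE 0.18, adjusted p = 0.0236) with it. On opposite strands, 22 and 75 of its 1959 exon bases are shared with the antisense genes Gm15894 and Gm15895 (123 and 198 counts over all libraries), and whether the counting used strand is not given in the sources used, so reads from those bases cannot be told apart.

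Csf2, the gene for GM-CSF, had the largest fold change of the 7 tested cytokine genes from a low starting level. It had 1.49 and 1.03 CPM in control, 0.911 and 1.26 with TMAO, 3.64 and 5.25 with TNF-α, and 3.63 and 2.98 with both, from 26 to 127 counts per library. The groups with and without TNF-α did not overlap. Its log2 fold change was 1.81 (SE 0.30, adjusted p = 0.0228 by the quasi-likelihood test of edgeR, adjusted by Benjamini-Hochberg) for TNF-α against control, with a 95% interval of the fold from 2.13 to 5.77. With TMAO present it was 1.60 (SE 0.31, adjusted p = 0.0415). Of its 800 exon bases, 96 are shared with the opposite-strand gene Gm12223, which had 5 counts in all.

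Thus 3 of the 7 tested cytokine genes, Csf1, Csf2 and Il34, rose with TNF-α against control, where 2.38% of all 15613 tested genes were called higher and 4.05% called in either direction. Both agents against TMAO, a comparison that shares no library with the first, called 3 of 7, also Csf1, Csf2 and Il34, where 2.16% of all genes were called higher and 3.64% in either direction. The median log2 fold change of the 7 was 0.74 and 0.53 in these comparisons, beside 0.02 and -0.02 over all tested genes. The cytokine genes, and the gene lists below, were chosen with earlier results of these data known. Values set beside those of all genes, here and below, are therefore descriptions and not independent evidence. Neither count of 3 holds when a library is removed from a fit of this size. Leaving out any 1 of the 6 libraries outside the TNF-α group gave 0 calls in both comparisons. The share of all genes called in those fits is not given here. The 0 therefore describes the fits and is not a result about the cytokine genes. Without TNF-α 14 or 16 that group holds 1 library, assumed to vary like the other groups, and its calls are not read here. Over the left-out fits, log2 fold changes against control ran from 0.67 to 0.79 for Csf1, 1.52 to 2.09 for Csf2 and 0.86 to 1.35 for Il34. With TMAO present they ran from 0.73 to 0.75, 1.40 to 1.87 and 1.04 to 1.19. In limma on TPM, Csf1 did not pass in either comparison (adjusted p from 0.0809 to 0.140 against control and from 0.0560 to 0.1002 with TMAO present). Il34 did not pass against control in limma on TPM without a filter (adjusted p = 0.0557). In edgeR fits of control and TNF-α alone Csf1, Csf2 and Il34 did not pass (adjusted p from 0.199 to 0.272).

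Averaging the change with TNF-α over both TMAO conditions, which uses 4 libraries on each side, called 5 of the 7, where 5.35% of all genes were called higher, 3.86% lower and 9.2% in either direction. All 5 were higher, and the median of the 7 was 0.71 log2 units beside 0.003 over all genes. The averaged log2 fold changes were 1.70 for Csf2 (SE 0.22, adjusted p = 0.00380), 1.11 for Il34 (SE 0.13, adjusted p = 0.00259) and 0.74 for Csf1 (SE 0.07, adjusted p = 0.00132) by the quasi-likelihood test of edgeR, adjusted by Benjamini-Hochberg. Csf1, Csf2 and Il34 passed with any 1 of the 8 libraries left out, and in limma on TPM. In CPM, 6 of the 7 had all 4 libraries with TNF-α above all 4 without it, all but Tgfb2, against 9.81% of all tested genes, while 10.2% of all genes had all 4 below.

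**Figure D2:**
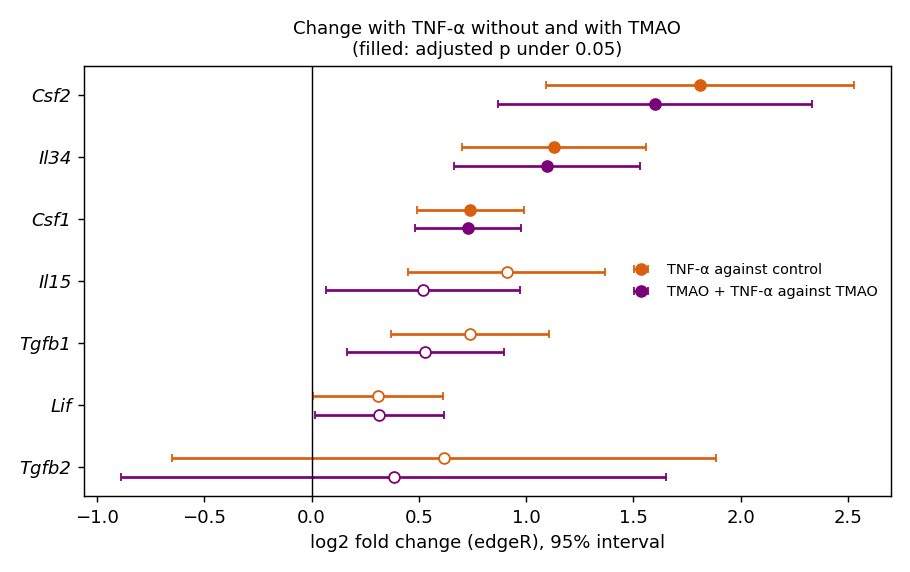
Log2 fold change with its 95% interval (horizontal axis) of the 7 tested cytokine genes for TNF-α against control (orange) and both agents against TMAO (purple); filled points passed an adjusted p of 0.05. Csf2, Il34 and Csf1 are filled in both comparisons, at 1.81 and 1.60, 1.13 and 1.10, and 0.74 and 0.73.

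In edgeR, Tgfb1 and Il15 rose when the 2 TMAO conditions were averaged and did not pass in either comparison alone. Tgfb1, the gene for the latent TGF-β1 protein, stood at 80.3 and 68.3 CPM in control, 69.7 and 71.2 with TMAO, 107 and 141 with TNF-α, and 98.4 and 105 with both. Every library with TNF-α exceeded every library without it. The averaged log2 fold change of Tgfb1 was 0.63 (SE 0.11, adjusted p = 0.0133 by the quasi-likelihood test of edgeR, adjusted by Benjamini-Hochberg), after 0.74 against control (adjusted p = 0.0511) and 0.53 with TMAO present (adjusted p = 0.147). It was lost, with adjusted p from 0.0548 to 0.0761, without control 16 or any of the 4 TMAO and combined libraries. Il15 had 3.45 and 3.76 CPM in control, 4.69 and 4.28 with TMAO, 5.79 and 7.77 with TNF-α, and 6.94 and 5.92 with both, again without overlap. Its averaged log2 fold change was 0.71 (SE 0.14, adjusted p = 0.0195), and it was 0.91 (adjusted p = 0.0533) and 0.52 (adjusted p = 0.272) in the separate comparisons. Leaving out any of the 6 libraries of the control, TMAO and combined groups raised the adjusted p to between 0.0594 and 0.103, and with TPM in limma it was 0.282 to 0.409.

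Lif, a cytokine of the IL-6 family, had 38.9 and 42.0 CPM in control, 43.4 and 42.0 with TMAO, 55.6 and 44.7 with TNF-α, and 52.1 and 54.2 with both. In CPM all 4 libraries with TNF-α were above those without, but in TPM the library TNF-α 16 was the lowest of all 8. The averaged log2 fold change of 0.31 (SE 0.09) did not pass (adjusted p = 0.0866 by the quasi-likelihood test of edgeR, adjusted by Benjamini-Hochberg). Over fits that each left out 1 of the 8 libraries, it ran from 0.23 without TNF-α 14 to 0.39 without TNF-α 16. Tgfb2, a second TGF-β gene, was barely detected, with 10 to 30 counts in each of the 8 libraries and 0.359 to 1.06 CPM, and its groups overlapped. Its averaged log2 fold change was 0.50 with a 95% interval from -0.40 to 1.40, which spans changes in both directions.

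Between TNF-α 16 and TNF-α 14 the cytokine genes did not all differ one way. In CPM, library 16 was at 1.44 times library 14 for Csf2, 1.41 for Il34, 1.34 for Il15 and 1.32 for Tgfb1, but at 0.927 for Csf1 and 0.803 for Lif. In TPM the ratios for Il34 and Tgfb1 were 0.974 and 1.01, so the difference between these 2 libraries for those genes was seen in the counts and not in TPM. For Csf2 the TPM ratio was 1.26, for Csf1 0.784 and for Lif 0.594.

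Il6, Tnf and Il1a were at or near the limit of detection and did not pass the filter on low counts. A limit of 3 counts corresponds to 0.0993 to 0.124 CPM in these libraries and covers counting error only. Il6 had 5 and 1 counts in control, 9 and 9 with TMAO, 1 and 5 with TNF-α, and 0 and 2 with both. More than 3 counts were seen in 4 of 8 libraries, including both with TMAO alone. Il1a had 2 and 4 counts in control, 10 and 1 with TMAO, 3 and 3 with TNF-α, and 8 and 8 with both, exceeding 3 in 4 libraries. Tnf, whose protein product was the agent added, had 0 counts in 6 libraries, 2 in TMAO 16 and 4 in the combined library 16. These values overlap between the groups with and without TNF-α for all 3 genes.

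The exact permutation test of 4 libraries with TNF-α against 4 without has 70 splits and a smallest two-sided p of 0.0286. Il6 averaged 0.0777 ± 0.0908 CPM with TNF-α and 0.204 ± 0.131 CPM without it (SD, n = 4 each), with an exact p of 0.2 and 0.6 after adjustment over the 3 genes. For Il1a the exact permutation p was 0.657 (adjusted 0.986), with 0.199 ± 0.101 CPM against 0.147 ± 0.142. For Tnf the exact permutation p was 1. With 70 splits, a gene at the smallest p would still not pass after adjustment over the 3 genes unless the others were low too. The number of libraries thus keeps this test from deciding whether any single gene differed with TNF-α, and no conclusion is drawn from it. Whether Il6, Il1a or Tnf differed with TMAO was not tested. Il1a shares 11.2% of its exon bases with the opposite-strand gene Gm14023 (56 counts in all), more than its own 39 counts.

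**Figure D3:**
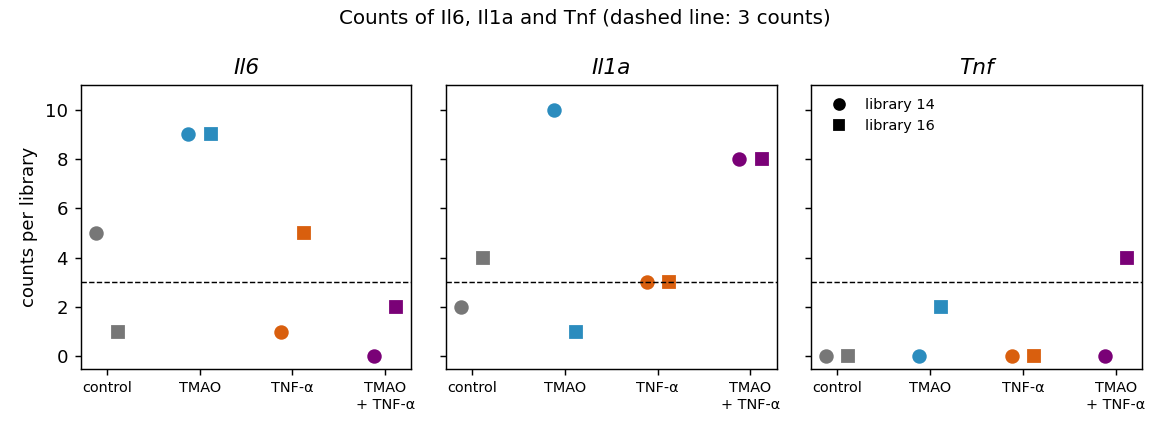
Counts per library (vertical axis) of Il6, Il1a and Tnf in the 4 groups; circles are libraries 14, squares libraries 16, and the dashed line marks 3 counts. No value exceeds 10 counts, Il6 is above the line in both TMAO libraries, and Tnf is above it in 1 library.

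TMAO called none of the 7 tested cytokine genes. TMAO against control, both agents against TNF-α, TMAO averaged over TNF-α and the interaction each had 0 of 15613 genes called by edgeR's quasi-likelihood test, so the background in each was 0%. DESeq2 also called 0 of the cytokine genes in each. At an unadjusted p under 0.05 there were 0 cytokine genes in TMAO against control, in both agents against TNF-α and in the interaction, and 1 in the averaged comparison. That gene was Il34, with an averaged log2 fold change of -0.35 (SE 0.13, unadjusted p = 0.0281, adjusted p = 0.660). In TPM the same comparison gave -0.03, and the control and TMAO groups lay at 9.34 ± 0.274 and 9.10 ± 0.206 TPM (SD, n = 2 each).

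For Csf1 the 95% interval of the averaged fold with TMAO ran from 0.921 to 1.17, for Lif from 0.912 to 1.22 and for Tgfb1 from 0.738 to 1.06. The less abundant genes were bounded more loosely, with 0.563 to 1.14 for Csf2 and 0.871 to 1.36 for Il15. Whether TMAO altered the change with TNF-α was tested as the interaction. Its log2 estimate was -0.01 (95% interval -0.36 to 0.34) for Csf1, -0.21 (-1.23 to 0.82) for Csf2, -0.39 (-1.03 to 0.25) for Il15, -0.03 (-0.64 to 0.58) for Il34 and -0.21 (-0.72 to 0.31) for Tgfb1. None passed, with adjusted p-values of at least 0.953 over the 7 genes. In simulated counts edgeR recovered 1.56% of interactions of 2-fold and 72.7% of those of 4-fold, and 7 of its 58 calls were false. The simulation gave each gene the same spread in all libraries, unlike the wider spread between the TNF-α libraries here.

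Among the receptors for these cytokines, 16 of 21 listed genes were tested, and with TNF-α averaged over TMAO 2 rose and 3 fell, beside 9.2% of all genes called. Il15ra, the chain that presents IL-15, went from 4.49, 5.34, 5.29 and 5.14 CPM in the control and TMAO libraries to 17.2, 14.02, 18.8 and 17.2 CPM with TNF-α, a log2 fold change of 1.73 (SE 0.11, adjusted p = 2.47e-04 by the quasi-likelihood test of edgeR, adjusted by Benjamini-Hochberg). The averaged change of Il15 itself was 0.71, and the difference between the 2 genes was not tested. Csf1r, the receptor of CSF1 and IL-34, lay between 6.62 and 7.81 CPM without TNF-α and between 2.94 and 3.64 CPM with it (log2 fold change -1.08, SE 0.11, adjusted p = 0.00118), while both of its ligand genes rose. Csf1r also stands in the list of macrophage markers given above. Tnfrsf1b, the second TNF receptor, changed by 0.58 (adjusted p = 0.00687) and Il6ra, the IL-6 receptor chain, by -0.78 (adjusted p = 0.0110). Tnfrsf1b passed in 4 of 8 and Il6ra in 2 of 8 fits that each left out 1 library, and neither passed in TPM. Lifr, the receptor of LIF, named after its value was seen, changed by -0.90 (adjusted p = 0.0481). It stood at 96.2 CPM in TNF-α 16 against 197 to 210 CPM in the other libraries with TNF-α. Lifr passed in 3 of 10 other settings and, among fits that each left out 1 library, only without TNF-α 14 or 16.

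The other receptor genes named here did not pass. Il6st, which encodes gp130, had 0.19 (adjusted p = 0.739), Tgfbr1 -0.27 (adjusted p = 0.449), Tgfbr2 0.11 (adjusted p = 0.643) and Tnfrsf1a, the first TNF receptor, -0.26 (adjusted p = 0.139) by the quasi-likelihood test of edgeR, adjusted by Benjamini-Hochberg. Il6st was at 94.8 CPM in TNF-α 16 and 200 to 204 CPM in the other libraries with TNF-α. The receptor chains of GM-CSF were not detected at a usable level, with Csf2ra at no more than 4 counts and Csf2rb at no more than 1 count in any library. The common chain Il2rg had at most 8 counts.

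Processing, storage and activation of these cytokines is carried out by proteases, latency proteins and integrins, of which 17 of 22 listed genes were tested. With TNF-α averaged over TMAO, 2 rose and 3 fell, beside 5.35% of all tested genes called higher and 3.86% lower. Mmp9, a matrix metalloproteinase, rose from 9.88 to 10.9 CPM over the libraries without TNF-α to 28.4 to 33.4 CPM with it (log2 fold change 1.57, SE 0.09, adjusted p = 1.55e-04 by the quasi-likelihood test of edgeR, adjusted by Benjamini-Hochberg). Itgb6, a chain of an integrin that releases latent TGF-β, went from 11.6 to 14.4 CPM to 27.3 to 32.7 CPM (1.18, adjusted p = 6.13e-04). Pcsk6, a proprotein convertase, fell from 66.8 to 77.6 CPM to 21.2 to 31.1 CPM (-1.41, adjusted p = 6.38e-04). Thbs1, thrombospondin 1, which can activate latent TGF-β, had -1.24 (adjusted p = 0.0135), with 290 CPM in TNF-α 16 and 587 to 601 CPM in the other 3 libraries with TNF-α, and it passed in 2 of 8 fits that each left out 1 library and not in TPM. Capn2, a calpain named after its value was seen, changed by -0.36 (adjusted p = 0.0284) and passed in 2 of 8 such fits. Furin and Adam17, whose proteases cut the TGF-β precursor and membrane TNF, had 0.07 (adjusted p = 0.747) and 0.17 (adjusted p = 0.427).

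**Figure D4:**
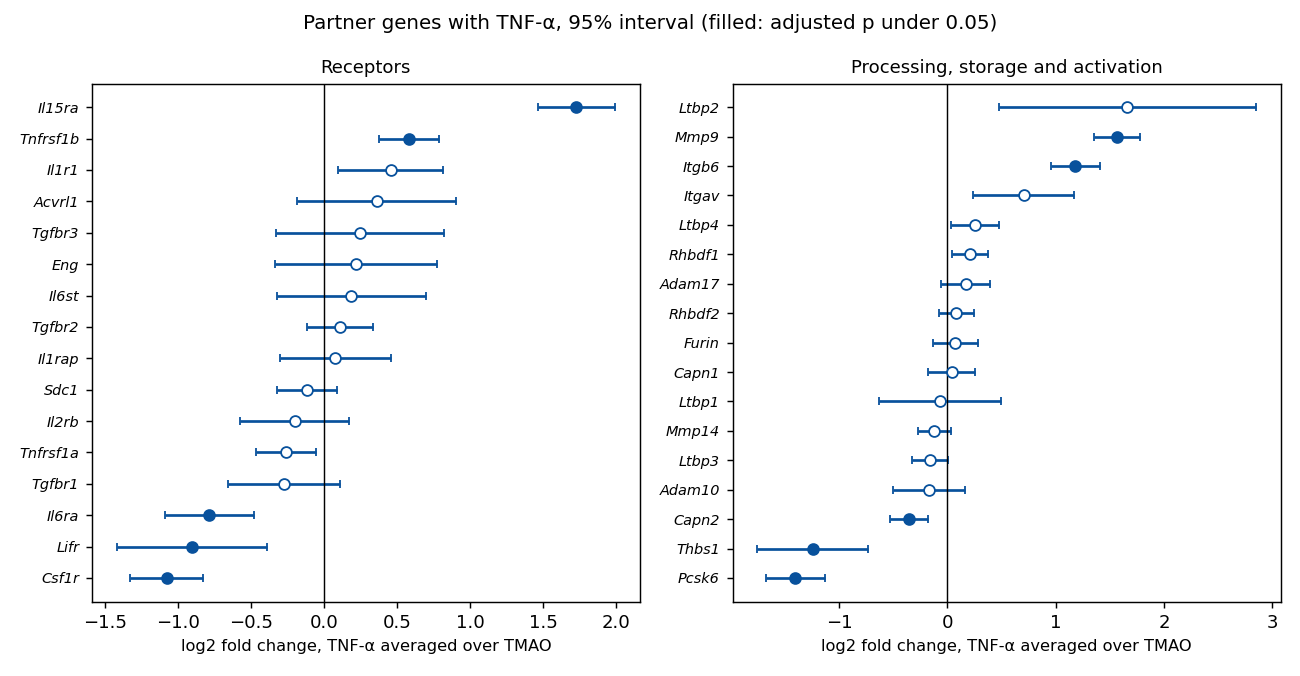
Log2 fold change with TNF-α averaged over TMAO, with 95% intervals (horizontal axis), for the 16 tested receptor genes and the 17 tested genes of processing, storage and activation; filled points passed an adjusted p of 0.05. Il15ra stands at 1.73 and Csf1r at -1.08 among the receptors, and Mmp9 at 1.57 and Pcsk6 at -1.41 among the others.

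Regulators of cytokine mRNA and transcription were measured in the same libraries. Zfp36, which encodes tristetraprolin, a protein that destabilises cytokine mRNA, was the only one of 14 mRNA stability genes called, at a log2 fold change of 0.33 (adjusted p = 0.0443 by the quasi-likelihood test of edgeR, adjusted by Benjamini-Hochberg), where 9.2% of all genes were called. Zfp36 did not pass by DESeq2 (adjusted p = 0.0645), and it passed in 2 of 8 fits that each left out 1 library (adjusted p from 0.119 to 0.213 in the other 6). Of 25 tested transcriptional activators 7 rose and 2 fell, beside 5.35% of all tested genes called higher and 3.86% lower. Relb and Nfkb2, which form the non-canonical NF-κB pair, rose by 1.43 (SE 0.11, adjusted p = 5.18e-04) and 0.57 (SE 0.08, adjusted p = 0.00494). Irf1, an interferon regulatory factor, rose by 0.64 (adjusted p = 0.00360) and Fosl1, an AP-1 subunit, by 0.63 (adjusted p = 0.00664). These 4 genes passed with any 1 of the 8 libraries left out.

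The other cytokine genes outside the chemokines gave a wider picture of the family. Of 41 listed genes 40 were in the table and 22 were tested, and with TNF-α averaged over TMAO 4 rose and 2 fell, beside 5.35% of all tested genes called higher and 3.86% lower. Ltb, the gene for lymphotoxin beta, had 18.3, 15.9, 12.8 and 13.7 CPM in the control and TMAO libraries and 58.3, 103, 54.8 and 56.2 CPM in those with TNF-α (log2 fold change 2.15, SE 0.18, adjusted p = 7.27e-04 by the quasi-likelihood test of edgeR, adjusted by Benjamini-Hochberg). Il1rn, which encodes the antagonist of the IL-1 receptor, rose by 1.53 (adjusted p = 8.24e-05), and Il23a, a subunit of IL-23, by 1.51 (adjusted p = 5.92e-04). Il33 fell, with 18.7 to 21.6 CPM without TNF-α and 7.94 to 9.82 CPM with it (-1.20, adjusted p = 6.74e-04). These 4 passed with any 1 library left out. Tnfsf10 (1.29) and Il7 (-0.71) were also called, and both are named after their values were seen. Each passed in 7 of 10 other settings. In TPM the values of Il7 overlapped, at 1.87 to 4.35 with TNF-α and 3.34 to 5.30 without it. Tnfsf10 passed in 3 of 8 fits that each left out 1 library. Il1b was not detected, with 0 counts in every library. TMAO averaged over TNF-α called 0 genes in each of these lists.

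By likeness of log2 CPM over the 8 libraries, the genes nearest to Csf1 among 11061 searched were Zhx2, Samhd1 and Zbtb7c, each with a Pearson correlation of 0.997 or 0.998. Nearest to Csf2 were Apobr, Tapbpl and C1rl (0.987 to 0.990), and nearest to Il15 were Pim1, Hao1 and Actr3 (0.965 to 0.981). For Il34 they were Psmd10, Ltb and Lurap1l (0.992 to 0.994), and for Tgfb1 Hmga1, Trim47 and Sult2b1 (0.997 to 0.999). Between the members, r was 0.98 for Csf2 and Il34, 0.97 for Il34 and Tgfb1 and 0.97 for Csf2 and Tgfb1, and 0.56 for Lif and Tgfb1. The points of each correlation are the same 8 libraries, so they share depth and the TNF-α contrast, and the values are descriptions.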

How the data were processed

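The authors deposited counts, whole numbers per Ensembl gene and library, in a table whose name gives htseq as the counter, and TPM values per symbol, with neither table pooling libraries. The build was mm9, per the submitters' processing notes, and the aligner, the annotation and the use of strand are not given in the sources used. Per the labels' protocols, oligo-selected mRNA was sequenced as paired reads. Groups came from the titles. All value columns were used, and 0 were left unused.

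The comparisons used edgeR (4.0.16, under R 4.3.3) on the 15613 genes that filterByExpr kept, with TMM scaling, 4 group means fitted to all 8 libraries (4 residual degrees of freedom) and the quasi-likelihood test in 7 contrasts, with Benjamini-Hochberg adjustment over all tested genes at 0.05. Standard errors were worked back from the log2 fold change and the statistic of that test. The 95% intervals were built on them, so both restate the p-value. Genes under the filter were compared by exact permutation of CPM. Alternatives used DESeq2 1.42.0, limma 3.58.1 on log2(TPM + 0.1) or log2(TPM + 1), other scalings and filters, a replicate block and left-out libraries. Promoter windows are from RefSeq on GRCm38.p6, and exon overlaps from GENCODE M21, whose identifiers matched 54409 of 54446 rows without their version. The scripts were tested on simulated counts, where edgeR recovered 12.8% of genes changed 1.5-fold and 55.9% of those changed 2-fold for TNF-α against control, and 2.86% and 1.56% for the interaction. The simulation gave each gene the same spread in all libraries, and only genes at 1 CPM or more on average were changed.

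The members and lists were chosen with earlier results of these data known. Named list genes are the 4 called genes with the smallest p for TNF-α averaged over TMAO in each list; others are stated as named after their values were seen or, in lists, named for their role. Similar genes are the 3 with the highest correlation of log2 CPM, at 1 CPM or more on average and leaving out unnamed predicted genes.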

Additional observations from a re-analysis of the deposited data

How the results depend on the processing

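The limits are 2 libraries per group, the spread between the TNF-α libraries, and the low counts of Csf2, Tgfb2 and the genes under the filter. Of the 7 tested cytokine genes, TNF-α against control called 3. That count was 5 with DESeq2, total-count scaling, no filter or a filter of 1 CPM. It was 0 with only the 2 groups compared and 1 with unfiltered TPM. A fit with control 14 and TNF-α 16 both left out was added after seeing the data. Both agents against TMAO called 3, and then 6 with only the 2 groups compared. Except where stated, the counts in this section stand without the share of all genes called in the same fit. They therefore describe the settings and are not a result about the cytokine genes. A fit that leaves 1 library in the TNF-α group also assumes that this library varies like the other groups. With each library left out in turn the counts ran from 0 to 6 for TNF-α against control, 0 to 6 for both agents against TMAO, 3 to 6 for TNF-α averaged over TMAO, 0 to 0 for TMAO against control, 0 to 3 for both agents against TNF-α, 0 to 3 for TMAO averaged over TNF-α and 0 to 1 for the interaction. The counts above 0 in the TMAO comparisons and the interaction arose without TNF-α 14, a fit that called 49.4% of all genes for both agents against TNF-α, and a lone library is assumed there to vary like the other groups.

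With the replicate block, the number 14 or 16 as a term, TNF-α against control called 2, both agents against TMAO 1 and TNF-α averaged over TMAO 5. The differences between libraries 14 and 16 correlated at -0.64 between control and TNF-α and between -0.08 and 0.005 for the other pairs of groups. None exceeded 0.1, so the numbers were not taken to pair the libraries.

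The 5 genes called with TNF-α averaged over TMAO stayed higher in every setting tried. Values that turned sign were all from comparisons in which that gene was not called by the settings reported above, and the cause was not tested. Unfiltered TPM gave Tgfb2 -0.27 for both agents against TMAO and 0.15 for TMAO averaged, and TPM gave Tgfbr2 -0.0013 with TNF-α averaged at pseudocount 0.1 with or without a filter. Without control 14 and TNF-α 16, TMAO against control gave 0.067 for Csf2 and 0.037 for Tgfb1, both agents against TNF-α gave -0.00078 for Csf1, -0.064 for Lif and 0.15 for Il15, TMAO averaged gave -0.025 for Lif and 0.15 for Tgfb2, and the interaction gave -0.079 for Lif and 0.18 for Il34. The interaction of Csf1 was 0.0014 with RLE scaling, 0.024 with total counts, 0.0022 with no filter and 0.073 with TPM at each setting, and that of Il34 was 0.0080 with total counts and 0.013 with TPM (0.011 at pseudocount 1). For Il1a the exact permutation p was 0.971 in TPM, with the difference in the other direction.

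With each library left out, log2 fold changes crossed 0 as follows. Tgfb2 ran from -0.58 to 0.98 for both agents against TMAO, -0.23 to 0.39 for TMAO against control, -1.16 to 0.40 for both agents against TNF-α and -0.56 to 0.22 for TMAO averaged. For TMAO against control Csf2 ran from -0.47 to 0.067 and Tgfb1 from -0.19 to 0.040. For both agents against TNF-α Csf1 ran from -0.0037 to 0.13, Lif from -0.067 to 0.27 and Il15 from -0.25 to 0.15. The interaction ran from -0.064 to 0.072 for Csf1, -0.48 to 0.073 for Csf2, -0.14 to 0.20 for Lif, -0.23 to 0.23 for Il34, -0.37 to 0.0081 for Tgfb1 and -1.21 to 0.36 for Tgfb2. With TNF-α averaged, Il6st ran from -0.13 to 0.41, the lowest without TNF-α 14 and the highest, at an adjusted p that passed, without TNF-α 16. Exact permutation p-values ran from 0.0857 to 0.314 for Il6, 0.714 to 1 for Tnf and 0.171 to 0.943 for Il1a. A filter of 1 CPM or of 0.5 TPM left no value for Tgfb2, and fits of only 2 groups exist only for the comparisons of 2 groups.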
